A study of Mus musculus with 4 samples.

Results

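Early megakaryocyte-erythroid progenitors were looked for among mouse bone marrow cells as cells holding transcripts of both Gata2 and Apoe and few or none of the genes that mark later stages. The members were chosen by a gate on raw counts of unique molecular identifiers (UMIs, 1 per captured transcript): at least 1 UMI of Gata2 and 1 of Apoe, at most 1 of Pf4 and 1 of Car1, 0 of Klf1 and Ms4a2, and fewer than 5 of Prg2. The gate took 4584 of 34320 kept cells (13.4%), 1176 and 1591 in the 2 Yoda1 libraries and 768 and 1049 in the 2 control libraries. These 7 genes therefore define the cells, and their levels are given as descriptions with no test. The other 29736 kept cells are called the rest.

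All libraries were single-cell RNA-seq of sorted LSK cells (lineage-negative, Sca-1-positive, Kit-positive), the marrow fraction that holds stem cells and multipotent progenitors, from WT mice. The Yoda1 group was given intraperitoneal Yoda1, an agonist of the stretch-gated ion channel Piezo1, over 2 weeks. The control libraries are labelled as controls, and the protocol names vehicle-treated mice. Each group had 2 libraries, numbered as labelled and called Yoda1 1, Yoda1 2, control 1 and control 2, the order in which values per library are listed below. Whether each library is a different animal is not labelled, so every p-value reflects library-to-library spread alone, and that spread may be technical.

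Megakaryocytes and red cells share early progenitors in which the zinc-finger factor GATA2, already present in stem cells, is joined and then replaced by GATA1. GATA1 acts with the cofactor encoded by Zfpm1 (FOG1), and the repressor encoded by Gfi1b is needed in both lineages. Mfsd2b encodes the sphingosine-1-phosphate exporter of red cells and platelets, and F2r encodes PAR1, a receptor cleaved by thrombin. Apoe encodes apolipoprotein E, a carrier of cholesterol made by macrophages and also by early blood progenitors. Of the genes that bound the gate, Pf4 encodes a platelet chemokine, Klf1 and Car1 a factor and a carbonic anhydrase of red cell precursors, Ms4a2 a chain of the IgE receptor of mast cells, and Prg2 a granule protein of eosinophils.

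Mfsd2b, Gfi1b and F2r are the markers of the label that the gate did not use. Their promoters are shown because each gene was highest in the gated cells with most Apoe (described below). The 250 bases before each start site are RefSeq sequence of build GRCm38.p6, minus strand, read 5′ to 3′. Capitals mark a GATA motif, searched on both strands as AGATAA or AGATAG, and with T as the first letter as TGATAA or TGATAG.
Gfi1b (chr2:28621983-28622232): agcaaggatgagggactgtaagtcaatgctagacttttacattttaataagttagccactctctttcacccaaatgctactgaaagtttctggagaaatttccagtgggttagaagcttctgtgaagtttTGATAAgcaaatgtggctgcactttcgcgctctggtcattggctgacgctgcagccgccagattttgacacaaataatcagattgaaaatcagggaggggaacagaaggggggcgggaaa
Mfsd2b (chr12:4874360-4874609): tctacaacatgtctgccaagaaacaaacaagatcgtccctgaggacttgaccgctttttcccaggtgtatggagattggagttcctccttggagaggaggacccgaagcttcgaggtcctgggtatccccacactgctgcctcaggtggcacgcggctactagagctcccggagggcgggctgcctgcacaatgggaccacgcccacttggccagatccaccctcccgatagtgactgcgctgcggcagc
F2r (chr13:95618467-95618716): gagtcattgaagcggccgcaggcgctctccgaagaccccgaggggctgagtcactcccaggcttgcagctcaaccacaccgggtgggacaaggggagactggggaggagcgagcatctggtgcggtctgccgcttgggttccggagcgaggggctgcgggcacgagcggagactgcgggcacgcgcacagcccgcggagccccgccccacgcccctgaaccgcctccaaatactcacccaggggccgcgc
Gfi1b held 1 match, TGATAA, beginning 120 bases before the start, while the windows of Mfsd2b and F2r held none of these motifs. Over 32851 RefSeq promoter windows of the same length, 26.5% held at least 1 match. Among the 20 genes that were highest, relative to the other gated cells, in those with most Apoe (described below), 16 had a window and 5 of these held a match (31.3%). Among the 20 that were lowest there, 17 had 23 windows, of which 4 held a match (17.4%).

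The 4 libraries held 89058521 to 110493533 UMIs in kept cells, and the gated cells 11712662, 16862032, 8576330 and 11277524. The median gated cell had 8205.5, 9068, 9308 and 8809 UMIs, against 10608, 7111, 11480.5 and 9536 in the rest, so the gated cells were the deeper ones only in Yoda1 2. Pairs of libraries shared 14 to 30 barcodes, and 0 to 2 of those were gated in both. Transcripts of Apoe and Gata2 were also found in cells marked by a lymphoid gene, and whether those cells made them was not tested. Apoe was found in 16.7%, 12.4%, 21.6% and 14.2% of cells with at least 2 UMIs of the lymphoid gene Dntt when each cell was thinned to 3000 UMIs, and Gata2 in 5.42%, 6.78%, 9.05% and 7.86%. The same thinning left Apoe in 75.0%, 68.2%, 71.4% and 67.4% of gated cells and Gata2 in 52.1%, 49.9%, 51.3% and 51.1%. The Dntt-positive cells had medians of 10139.5, 9199, 10427 and 8206 UMIs. The gate rested on single UMIs in many cells: Gata2 was at exactly 1 UMI in 56.5%, 54.4%, 52.6% and 48.2% of gated cells, and both genes were at exactly 1 in 16.1%, 19.99%, 16.3% and 18.3%.

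The label's remaining markers were missing from most gated cells. At 3000 UMIs per cell, 80.1%, 87.5%, 78.9% and 79.2% of gated cells had no UMI of Mfsd2b, Gfi1b or F2r, against 83.3%, 91.5%, 76.7% and 79.3% of the rest. Without thinning the shares were 64.9%, 69.9%, 60.3% and 61.9% of gated cells and 66.4%, 82.4%, 55.5% and 64.2% of the rest. Gfi1b stood at 23.2, 19.9, 26.7 and 26.5 CPM (UMIs summed over the gated cells of a library and scaled to its depth), against 31.4, 16.8, 49.9 and 43.8 CPM in the rest. The values of Mfsd2b were 18.4, 6.11, 23.7 and 22.1 CPM in gated cells, against 25.3, 9.32, 39.3 and 34.1 CPM in the rest. F2r was at 22.0, 17.4, 24.1 and 27.7 CPM in gated cells and 20.98, 16.3, 24.5 and 31.8 CPM in the rest. Gated cells were thus below the rest in 3 of 4 libraries for Gfi1b and in all 4 for Mfsd2b.

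The rest also holds the cells that Pf4, Klf1 or Car1 kept out of the gate. Other cells passed those limits but lacked Gata2, Apoe or both, and the gated cells stood higher than the classes of these given here. Mfsd2b was found at 3000 UMIs in 7.08%, 2.11%, 8.82% and 7.76% of gated cells, against 1.70%, 0.564%, 2.22% and 1.20% of cells with Apoe and no Gata2, and 0.703%, 0.105%, 0.874% and 0.569% of cells with neither. F2r was found in 7.94%, 5.24%, 8.29% and 9.21% of gated cells, against 2.16%, 3.81%, 3.03% and 3.42% of cells with Gata2 and no Apoe and 2.69%, 2.93%, 2.05% and 2.55% of cells with Apoe and no Gata2. Gfi1b was found in 9.23%, 6.64%, 9.21% and 8.83% of gated cells, against 4.11%, 1.81%, 2.48% and 3.60% with Gata2 and no Apoe and 2.86%, 3.44%, 3.68% and 3.27% with Apoe and no Gata2. Each of the 3 genes was thus found in a larger share of gated cells than of the 2 classes given for it, in all 4 libraries. In Yoda1 1 the remaining class was lower too. Mfsd2b was in 1.30% of cells with Gata2 and no Apoe, and F2r in 1.19% and Gfi1b in 2.02% of cells with neither.

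As most held none of these 3 markers, and cells outside the gate with Pf4, Klf1 or Car1 held them more often, the cells are called gated cells here and not early megakaryocyte-erythroid progenitors. All 11 genes of a list of stem cell genes were higher in gated cells than in the rest of the same library in all 4 libraries. So were 10 of 16 megakaryocyte-erythroid factors, Gata2 among them, and 6 of 15 surface and transport genes of these progenitors. Of the later genes, 2 of 16 megakaryocyte and 0 of 17 erythroid genes did so, lists that hold Pf4, Klf1 and Car1 of the gate. Lists of other kinds gave 8 of 16 macrophage and 13 of 25 interferon genes. The share over all genes was not counted, so no megakaryocyte-erythroid tilt is drawn from these counts. The stem cell list summed to 431, 898, 369 and 414 CPM in gated cells, against 207, 591, 196 and 246 CPM in the rest. By the smallest of the 4 libraries' log2 ratios of CPM + 10, the 20 leading genes included Gata2 itself, then Dach1, Serpina3g, Slc18a2, Myct1, Angpt1, Krt18, Fut8, Mdga1, Mecom, Muc13, Hacd4, Nceh1, Meis1, Spns2, Csgalnact1, Ndrg1, Hlf and H1f10. Mecom, Meis1 and Hlf are the 3 of these 20 in the stem cell list, while most of the 20 are in none of the lists. The stem cell regulator Hlf, a PAR bZIP factor, stood at 147, 355, 116 and 135 CPM in gated cells, against 63.1, 253, 53.7 and 70.2 CPM in the rest. Mecom, which encodes the stem cell factor EVI1, was at 35.9, 82.3, 23.4 and 29.4 CPM in gated cells and 14.4, 49.0, 10.7 and 16.2 CPM in the rest. Meis1, a homeobox factor of stem cells and megakaryocyte precursors, was at 159, 269, 161 and 171 CPM in gated cells and 80.7, 182, 84.5 and 108 CPM in the rest. Angpt1, which encodes the ligand of the receptor TIE2, was at 191, 297, 158 and 200 CPM in gated cells, against 95.5, 188, 89.0 and 120 CPM in the rest. In each of these 4 genes gated cells were above the rest of the same library, and Yoda1 2 was the highest library in both. Against cells with Gata2 and no Apoe, not all of these genes stood higher. After thinning, Hlf was in 33.9%, 60.5%, 26.4% and 30.4% of gated cells and 34.0%, 60.4%, 32.0% and 34.1% of the cells lacking Apoe. Mecom was in 12.7%, 22.3%, 7.37% and 9.21% of gated cells, against 10.4%, 19.6%, 7.44% and 8.83%. Meis1 was higher in gated cells in all 4 libraries, at 42.1%, 54.7%, 40.8% and 42.6%, against 34.0%, 47.5%, 32.2% and 38.2%. Lowest against the rest were Pf4, Car1, Prss34, Ms4a2 and Mt1, of which Pf4, Car1 and Ms4a2 are genes of the gate.

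Kit and Ly6a, the genes of the sort (Ly6a encodes Sca-1), were both detected. Kit, the stem cell factor receptor, was at 156, 205, 126 and 176 CPM in gated cells and 99.1, 145, 95.9 and 123 CPM in the rest. Ly6a was at 309, 114, 153 and 95.5 CPM in gated cells, against 256, 113, 109 and 98.3 CPM in the rest. Piezo1, which encodes the channel that Yoda1 opens, was low, at 18.3, 13.8, 24.5 and 18.7 CPM in gated cells and 20.3, 14.7, 25.1 and 17.8 CPM in the rest.

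Cells just outside the gate that held Gata2 and Apoe together with Pf4, or with Klf1 or Car1, carried more of the label's markers than the gated cells did. Gfi1b was found at 3000 UMIs in 18.1%, 15.9%, 18.9% and 23.2% of the 1862 cells with at least 2 UMIs of Pf4, above the shares of gated cells given before. The share was 18.8%, 23.4%, 22.9% and 27.6% of the 2646 cells with Klf1 or at least 2 UMIs of Car1. Gata1 was found in 8.20%, 3.26%, 8.82% and 8.54% of gated cells, against 17.0%, 8.75%, 16.6% and 16.6% of the Pf4-positive cells. Among the Klf1-positive or Car1-positive cells the Gata1 share was 30.1%, 17.0%, 30.2% and 28.2%. Hlf ran the other way, in 33.9%, 60.5%, 26.4% and 30.4% of gated cells, against 17.0%, 38.1%, 13.8% and 14.5% of the Pf4-positive cells. Cpa3, a carboxypeptidase of mast cells and their precursors, was found in 23.7%, 8.37%, 30.9% and 29.97% of gated cells and in 9.70%, 6.56%, 11.4% and 10.2% of the Pf4-positive cells. For Cpa3 the share in Dntt-positive cells was 3.89%, 2.53%, 7.41% and 4.91%.

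**Figure D1:**
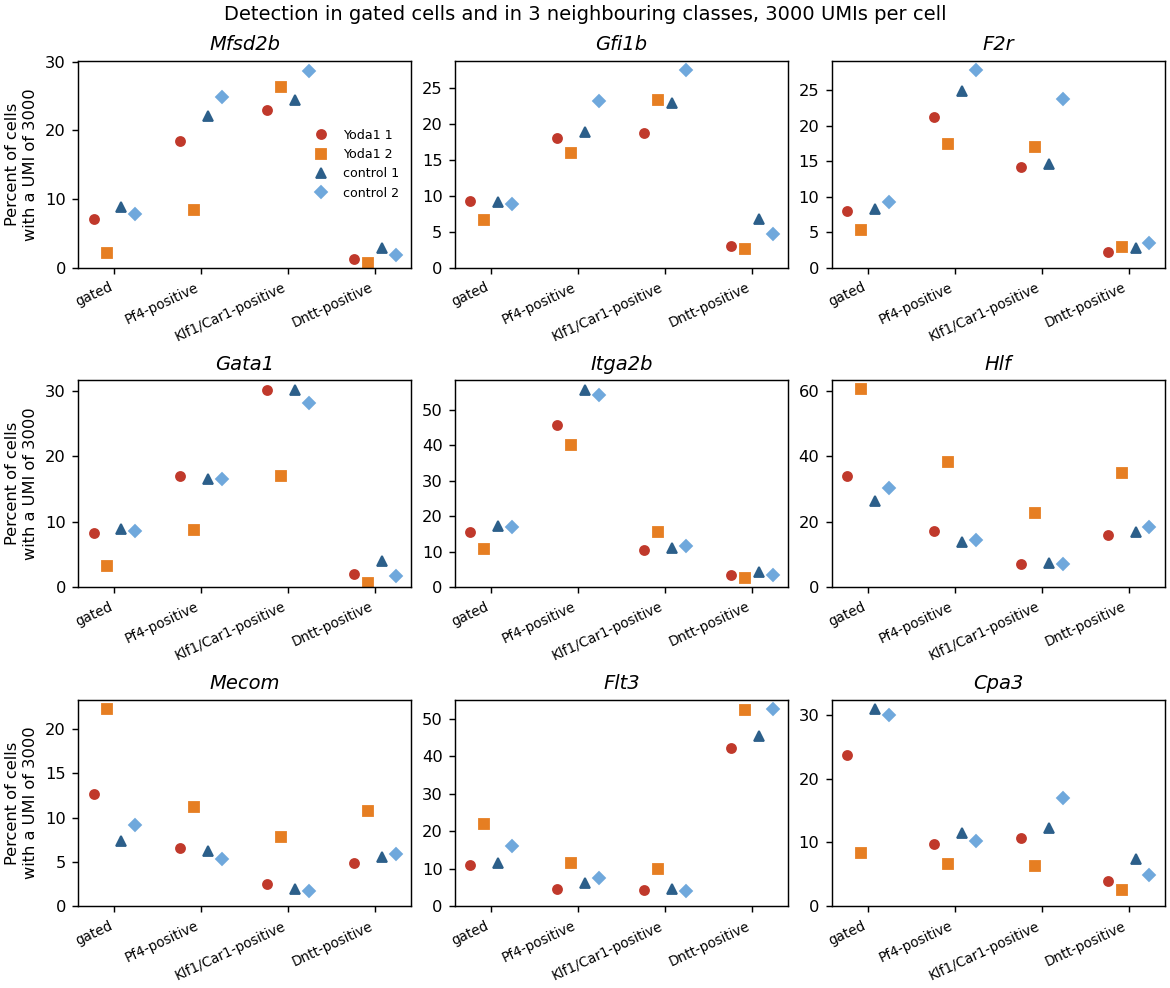
Percent of cells with a UMI of each gene after thinning every cell to 3000 UMIs (vertical axes from 0), in gated cells and in cells outside the gate with both Gata2 and Apoe and Pf4, with both and Klf1 or Car1, or with at least 2 UMIs of Dntt. Each point is a library. Among these classes Mfsd2b, Gfi1b and Gata1 are highest beside the gate, while Hlf and Mecom are highest in the gated cells. Cells with Gata2 and no Apoe are not shown, and Hlf was about as frequent there as in gated cells, or more frequent.

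At the lower edge of the gate, the 824 cells with 1 UMI of each gene were set beside the cells that missed it for want of Apoe. Gfi1b was found at 3000 UMIs in 3.23%, 2.26%, 4.10% and 3.74% of these edge cells, against 4.11%, 1.81%, 2.48% and 3.60% of the 2546 cells with Gata2 and no Apoe. Hlf was found in 28.5%, 66.1%, 34.4% and 34.2% of the edge cells and in 34.0%, 60.4%, 32.0% and 34.1% of the cells with Gata2 and no Apoe. Neither gene was higher in the edge cells in all 4 libraries.

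Within the gate, the megakaryocyte-erythroid genes lay in the cells with most Apoe. Gated cells of at least 3000 UMIs were split by their Apoe UMIs among 3000 into 0, 1, 2 to 3 and 4 or more, a split made after earlier values were seen. It uses a gene of the gate, so it is a description. The top group held 350, 224, 205 and 300 cells, 30.2%, 14.3%, 27.0% and 29.1% of the gated cells that deep. Across the groups Gata1 was at 5.80, 8.62, 22.5 and 63.4 CPM in Yoda1 1, from least to most Apoe. The same steps gave 2.16, 5.72, 10.4 and 44.8 CPM in Yoda1 2, 8.65, 6.45, 21.5 and 74.2 CPM in control 1 and 2.29, 5.84, 14.0 and 77.4 CPM in control 2. Most of the increase therefore lay above 1 UMI of Apoe in each library.

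All 3 promoters shown above belong to genes with this course. Gfi1b was at 50.8, 45.3, 69.9 and 72.6 CPM in the cells with most Apoe and 9.91, 13.4, 9.27 and 9.78 CPM in those with 0 among 3000. Mfsd2b was at 54.9, 26.1, 80.4 and 83.1 CPM in the cells with most Apoe, against 2.90, 2.31, 3.71 and 3.12 CPM. F2r was at 57.1, 36.8, 72.4 and 80.0 CPM in the cells with most Apoe, against 7.25, 13.9, 4.33 and 8.11 CPM. In the cells with most Apoe all 3 genes were lower in both Yoda1 libraries than in both controls, and Yoda1 2 was lowest for each. The share of all genes that did so in these cells was not counted, so no result is drawn from it. At least 1 of the 3 was found at 3000 UMIs in 38.9%, 28.6%, 44.9% and 48.0% of the cells with most Apoe. In the cells with 0 Apoe among 3000 that share was 7.93%, 8.84%, 5.53% and 5.65%.

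The 20 genes that gained most with Apoe, Apoe itself left out, included Gata1, Itga2b (the platelet integrin chain CD41), Cavin2, Mfsd2b, Fgf3, Gp5 and Zfpm1, as well as Gfi1b, Gp9, Aqp1 and Slc18a2. Itga2b was at 113, 96.0, 126 and 123 CPM in the cells with most Apoe, against 26.4, 22.8, 32.1 and 28.1 CPM in those with 0. Zfpm1 was at 252, 220, 231 and 209 CPM in the cells with most Apoe and 42.8, 82.1, 48.8 and 50.3 CPM in those with 0. The erythropoietin receptor gene Epor was at 10.1, 8.53, 7.42 and 15.7 CPM in the cells with most Apoe, against 1.21, 0.770, 0.309 and 0.208 CPM. Gata2 also followed, at 293, 278, 357 and 373 CPM against 105, 138, 104 and 116 CPM. Among the 8555 genes that averaged 10 CPM or more in gated cells, 1625 were higher in the cells with most Apoe in all 4 libraries and 1206 lower. Of the 14 factors of the megakaryocyte-erythroid programme at that level, Gata2 among them, 10 were higher and 2 lower. Of 13 surface and transport genes of these progenitors 11 were higher and 1 lower, and of 6 megakaryocyte genes all 6 were higher.

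Myeloid genes ran against Apoe, and so did most G2/M phase genes, dendritic and MHC class II genes and some lymphoid ones. Elane, the neutrophil elastase, was at 375, 48.5, 588 and 326 CPM in the cells with most Apoe, against 1670.2, 313, 2984 and 3033 CPM in those with 0. Flt3, a cytokine receptor of multipotent and lymphoid progenitors, was at 12.7, 32.0, 29.1 and 29.7 CPM in the cells with most Apoe, against 54.9, 139, 73.5 and 83.6 CPM. Of 12 myeloid genes 10 were lower in the cells with most Apoe in all 4 libraries, and the list summed to 2469, 762, 4087 and 2802 CPM there, against 10293, 2027, 13838 and 13429 CPM. Of 12 lymphoid genes 4 were lower and 0 higher (3 and 0 of the 5 at 10 CPM or more). They summed to 502, 441, 627 and 718 CPM with most Apoe and 634, 770.5, 841 and 983 CPM with 0. Of 18 G2/M genes 13 were lower and 0 higher, and they summed to 4164, 3206, 3052 and 2771 CPM with most Apoe and 4548, 3542, 4155 and 3801 CPM with 0. Of 6 dendritic and MHC class II genes at 10 CPM or more, Flt3 among them, all 6 were lower. The sum of 9 mast cell and basophil genes was higher with most Apoe, at 265, 122, 430.5 and 569 CPM, against 201, 43.1, 261 and 294 CPM with 0. Of these 9 genes 4 were higher in all 4 libraries and 1 lower. Only 3 of them reached 10 CPM, of which 1 was higher and 1 lower. Of the 11 stem cell genes 7 were higher with most Apoe in all 4 libraries and 1, Hlf, was lower (4 and 1 of the 6 at 10 CPM or more). Their sum was 510.2, 856, 473 and 497 CPM with most Apoe, against 279, 859.7, 266 and 324 CPM with 0, so it was higher in every library but Yoda1 2. Hlf was lower by little except in Yoda1 2 and control 2, at 110, 221, 103 and 89.7 CPM in the cells with most Apoe and 112, 377, 109 and 128 CPM in those with 0. Depth moved with the split: the median cell had 6759.5, 7654, 6622 and 6486 UMIs with most Apoe and 12362.5, 11499, 13605 and 13369.5 UMIs with 0, and the part of depth in these differences was not tested. Of 16 macrophage genes 6 were higher with most Apoe in all 4 libraries and 2 lower. Only 4 of them reached 10 CPM, of which 3 were higher and 1 lower. The 16 genes summed to 71.3, 107, 168 and 94.9 CPM with most Apoe and 71.1, 88.6, 104 and 95.7 CPM with 0.

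**Figure D2:**
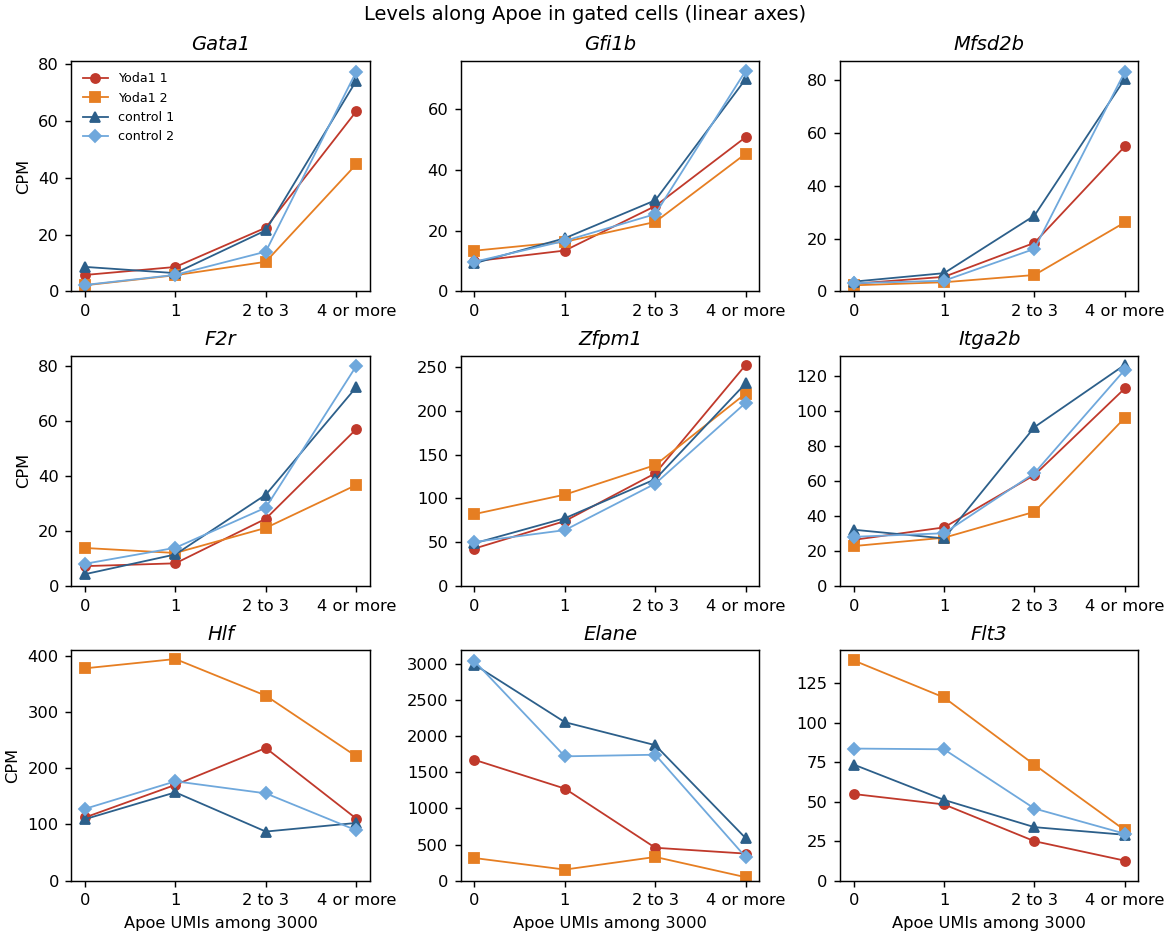
Level of 9 genes (CPM, linear axes from 0) in gated cells grouped by their Apoe UMIs among 3000, from 0 to 4 or more; each line is a library. Gata1, Gfi1b, Mfsd2b, F2r, Zfpm1 and Itga2b are highest in the cells with most Apoe in every library, Elane and Flt3 lowest there.

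The share of kept cells in the gate asked whether these cells were more frequent after Yoda1. It was 12.9% and 16.3% in the Yoda1 libraries, against 10.1% and 13.4% in the controls, a mean of 14.6% ± 2.42 against 11.7% ± 2.36 (SD, n = 2 libraries each). The ranges overlap, and permuting the 4 libraries (exact, two-sided) gave p = 0.667, where the smallest p that 6 arrangements allow is 0.333. Exact (Clopper-Pearson) 95% intervals, which cover counting error only, were 12.2 to 13.6%, 15.6 to 17.1%, 9.41 to 10.8% and 12.7 to 14.2%. With the gate applied to cells thinned to 3000 UMIs the shares were 7.84% and 7.42% in Yoda1 libraries and 7.17% and 7.73% in controls. All limits then applied to thinned counts, so cells with Pf4, Klf1, Car1 or Ms4a2 above its limit at full depth could enter. The part of depth and of this change of cells in the shares was not tested. The difference of means was 2.86 percentage points on all UMIs and 0.183 on thinned cells. Thinning left out 154, 446, 226 and 252 shallower kept cells. The cells with most Apoe made up 3.90% and 2.41% of kept cells of that depth in Yoda1 libraries and 2.77% and 3.96% in controls.

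The limits on other lineages took very different shares of each library. Of the cells with both Gata2 and Apoe, 38.9% and 70.8% stayed in the gate in the Yoda1 libraries and 24.4% and 36.4% in the controls. Klf1 was present in 809 and 185 such cells in the Yoda1 libraries and 1304 and 720 in the controls, and Pf4 was above its limit in 814 and 385, against 852 and 759. Yoda1 2 therefore had the fewest cells with red cell or platelet transcripts beside Gata2 and Apoe. In these sums over cells, fewer cells of a kind and less RNA per cell cannot be told apart.

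**Figure D3:**
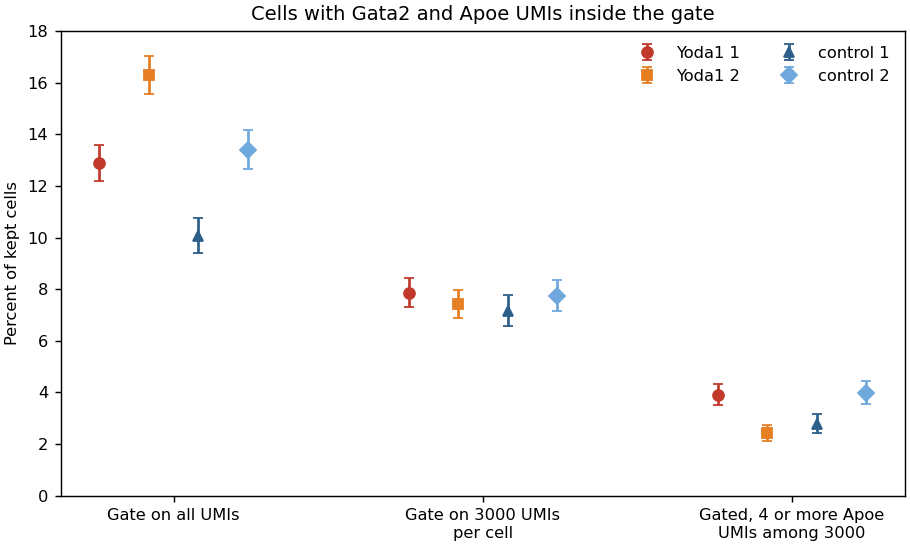
Percent of kept cells in the gate on all UMIs, in the gate on 3000 UMIs per cell, and gated with at least 4 Apoe UMIs among 3000 (of kept cells with 3000 UMIs). Points are libraries, Yoda1 left of control, and bars are exact 95% binomial intervals. The 4 libraries lie between 7.17% and 7.84% when every limit of the gate is applied to thinned counts, which also changes which cells it takes.

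To ask which transcripts differed inside the gate after Yoda1, UMIs of gated cells were summed per library and tested with edgeR's quasi-likelihood test. Of 13689 genes it called 0 (0%) at an adjusted p of 0.05 by Benjamini-Hochberg, while 275 had higher and 223 lower values with p under 0.05 before adjustment. limma-voom called 0 as well, against 208 higher and 284 lower before adjustment, and DESeq2 called 2, both lower, S100a8 and Wfdc21. Of all tested genes 17.7% were higher in both Yoda1 libraries than in both controls and 10.9% were lower in both, which is the background for the counts below. The fold change was above 0 in 50.8% of genes, and the median log2 fold change of all genes was 0.0045. The count hung on single Yoda1 libraries: it was 815 without Yoda1 1 (410 higher, 405 lower), 152 without Yoda1 2 (113 higher, 39 lower), and 0 without control 1 or control 2. With Yoda1 2 left out the lone Yoda1 library is assumed to vary like the controls, and likewise with Yoda1 1 left out.

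Lower in both Yoda1 libraries, with the smallest unadjusted p, were S100a8, Fos, Pglyrp1, Gatm and Pde4d, none of which passed the test. S100a8, which encodes a chain of the calprotectin dimer of neutrophils (chromosome 3, 90668978 to 90670035, GRCm38), was at 9.82 and 12.3 CPM in Yoda1 libraries, against 58.8 and 38.3 CPM in controls. Its log2 fold change was -2.19 ± 0.24 (SE, edgeR adjusted p = 0.377), and DESeq2 gave an adjusted p of 1.72e-10. The log2 fold change was -0.91 with a gate of at least 2 UMIs each of Gata2 and Apoe and -0.55 in the cells with most Apoe. A few cells held much of it: the 5 richest gated cells carried 28.7% and 38.2% of its UMIs in Yoda1 libraries and 47.8% and 73.6% in controls. S100a8 was found in 6.97% and 7.29% of gated cells in Yoda1 libraries, against 20.2% and 9.15% in controls, so most gated cells had none. Wfdc21, named because DESeq2 called it (adjusted p = 0.000356), was at 1.45 and 0.771 CPM, against 7.35 and 8.25 CPM. It rested on 17 and 13 UMIs in 10 and 10 gated cells of Yoda1 libraries and 63 and 93 UMIs in 28 and 29 of controls. The 5 richest cells carried 70.6% and 61.5% of its UMIs in Yoda1 libraries and 55.6% and 61.3% in controls.

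Fos, an immediate early transcription factor gene (chromosome 12, 85473890 to 85477273), was at 21.8 and 28.5 CPM in Yoda1 libraries, against 39.6 and 49.3 CPM in controls, a log2 fold change of -0.88 ± 0.17 (edgeR adjusted p = 1.0). Pglyrp1, which binds bacterial peptidoglycan and is stored by neutrophils, was at 32.9 and 32.7 CPM, against 58.4 and 50.4 CPM. Gatm, the first enzyme of creatine synthesis, was at 33.6 and 35.2 CPM, against 50.3 and 61.9 CPM, and Pde4d, a cyclic AMP phosphodiesterase, at 33.6 and 36.3 CPM, against 50.1 and 53.6 CPM. Each of these genes was lower in both Yoda1 libraries by the rule that named it.

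On the higher side the rule named Plxna4os1, Plxdc2, Scarf1, Esam and Ccnd1, again with no adjusted p under 0.05. Esam, an adhesion molecule of stem cells and endothelium (chromosome 9, 37528078 to 37538319), was at 19.6 and 38.1 CPM in Yoda1 libraries, against 9.68 and 13.7 CPM in controls, a log2 fold change of 1.23 ± 0.30 (edgeR adjusted p = 1.0). Ccnd1, the gene of cyclin D1, which drives entry into the cycle (chromosome 7, 144929931 to 144939925), was at 26.2 and 34.9 CPM, against 18.7 and 17.1 CPM, a log2 fold change of 0.72 ± 0.17. Plxdc2, a membrane protein, was at 13.1 and 24.6 CPM, against 6.76 and 7.45 CPM. Scarf1, a scavenger receptor, was at 18.7 and 29.5 CPM, against 12.1 and 11.7 CPM. Plxna4os1 is annotated as antisense, and as the sources used here do not say how strand was counted its 14.8 and 17.5 CPM, against 7.81 and 8.51 CPM, are uncertain. Yoda1 2 was the higher Yoda1 library in all 5 genes.

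**Figure D4:**
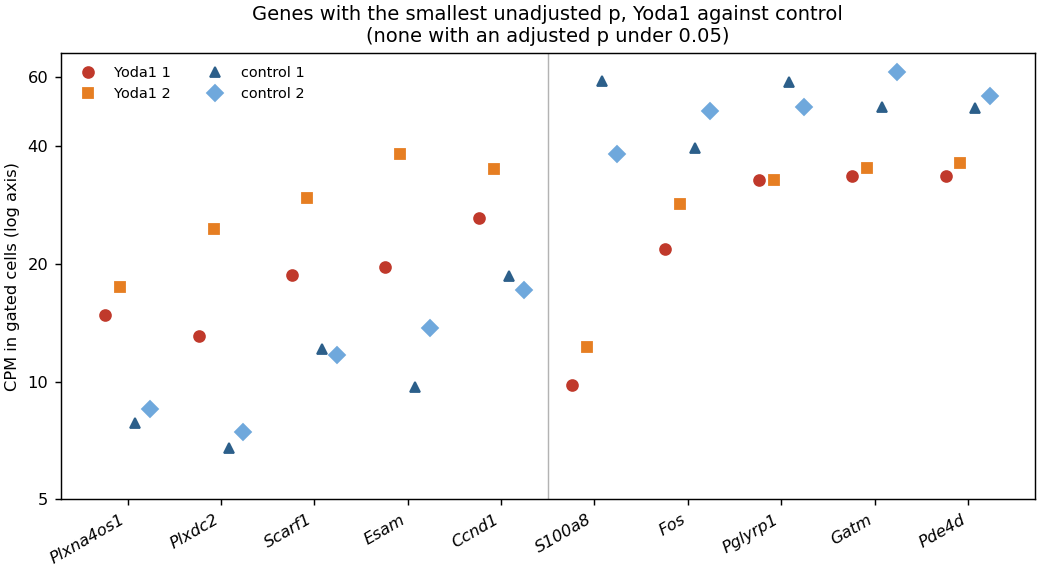
CPM in gated cells (log axis) of the 10 genes with the smallest unadjusted p, 5 per direction, where all libraries of one group lie above the other group; each point is a library, Yoda1 left of control. None passed the adjusted threshold.

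The 3 markers of the label that the gate did not use were on the lower side, and none passed the test. Mfsd2b had a log2 fold change of -0.95 ± 0.47, F2r of -0.44 ± 0.20 and Gfi1b of -0.35 ± 0.18 (SE, edgeR adjusted p = 1.0 for each), and all 3 lay below both controls in both Yoda1 libraries. Much of the Mfsd2b difference was Yoda1 2, at 6.11 CPM. Gata1 was at 22.6 and 9.67 CPM in Yoda1 libraries, against 22.9 and 20.4 CPM in controls. The 14 tested factors of the megakaryocyte-erythroid programme outside the gate's own genes split into 5 with a positive and 9 with a negative fold change, 1 above both controls and 4 below, median -0.09. Among the 15 surface and transport genes Pdzk1ip1, a small membrane protein of stem cells, was at 48.1 and 70.3 CPM against 21.5 and 35.8 CPM, and Tfrc, the transferrin receptor, at 17.7 and 15.8 CPM against 25.7 and 25.4 CPM. Car2, a carbonic anhydrase, was at 411 and 639 CPM against 320 and 368 CPM. Of these 15 genes 3 lay above both controls and 5 below, median -0.08, so the list had no common direction.

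Stem cell genes were higher, chiefly in Yoda1 2. All 11 tested had a positive fold change and 7 lay above both controls, with a median log2 fold change of 0.83 that was 0.22 without Yoda1 2, and 0 passed the test. The list summed to 431 and 898 CPM in Yoda1 libraries and 369 and 414 CPM in controls. Mecom had a log2 fold change of 1.09 ± 0.32 and Hlf of 0.93 ± 0.33 (edgeR adjusted p = 1.0 for each), both with Yoda1 2 far above the other 3 libraries. In the rest the same list summed to 207 and 591 CPM in Yoda1 libraries and 196 and 246 CPM in controls, so Yoda1 2 also stood out there.

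Myeloid genes were lower, again most in Yoda1 2. All 12 had a negative fold change and 10 lay below both controls, with a median log2 fold change of -1.29 that was -0.68 without Yoda1 2 and -2.53 without Yoda1 1. The list summed to 6671 and 1661 CPM in Yoda1 libraries, against 10511 and 9499 CPM in controls. In the rest it summed to 8491 and 2831 CPM in Yoda1 libraries and 10465.5 and 9836 CPM in controls. Cebpa, the factor that commits cells to granulocytes and monocytes, was at 34.6 and 18.9 CPM against 54.6 and 65.8 CPM, and Cebpe, a later factor of granulocytes, at 32.8 and 8.18 CPM against 76.1 and 72.0 CPM. Elane was found at 3000 UMIs in 42.7%, 12.8%, 66.7% and 45.5% of gated cells and in 33.8%, 11.9%, 56.0% and 33.7% of Dntt-positive cells, and the part of free RNA in the myeloid values was not tested. Mast cell and basophil genes went the same way, with 6 of 7 tested below both controls and a median of -1.15 (-0.47 without Yoda1 2), and their sum was 237 and 69.8 CPM against 341 and 374 CPM, with Ms4a2 at 0 by the rule.

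Genes of cholesterol synthesis and uptake were slightly higher in both Yoda1 libraries. Of 19 tested, 18 had a positive fold change and 14 lay above both controls, beside the background of 17.7%, with a median log2 fold change of 0.38 that lay between 0.22 and 0.42 with each library left out. None passed the test, and the list was chosen with a like pattern over all cells of these libraries known, so it is no independent evidence. Msmo1, an oxidase of the pathway, was at 21.7 and 25.7 CPM in Yoda1 libraries, against 15.6 and 15.4 CPM in controls, a log2 fold change of 0.56 ± 0.16. Srebf2, the transcription factor that drives the pathway, was at 65.7 and 92.6 CPM against 56.7 and 54.5 CPM. In the rest the list summed to 406 and 435 CPM in Yoda1 libraries and 365 and 323 CPM in controls, beside 436 and 491 CPM against 386 and 345 CPM in gated cells. Of 11 genes of lipoprotein binding and cholesterol efflux besides Apoe, 6 had a positive and 5 a negative fold change, with Abca1, the efflux transporter, at 11.4 and 12.7 CPM against 7.58 and 8.07 CPM.

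Interferon-responsive genes were high in Yoda1 1 only. Their 25 genes summed to 3459 and 1133 CPM in Yoda1 libraries, against 1603 and 1399 CPM in controls, so Yoda1 2 was the lowest of the 4 libraries. The median log2 fold change of 0.61 became 1.32 without Yoda1 2 and -0.67 without Yoda1 1, and 3 genes lay above both controls. Gbp2, an interferon-induced GTPase, was one of these, at 34.9 and 28.3 CPM against 21.6 and 21.2 CPM. Of 16 tested immediate early genes 11 had a negative fold change and 4 lay below both controls (Fos, Btg2, Klf6 and Fosb), median -0.32, which was 0.02 without control 2. Of 7 tested mechanosensitive channel genes 4 had a positive fold change, median 0.04, and Piezo1 was at 18.3 and 13.8 CPM against 24.5 and 18.7 CPM. Of 17 tested genes of calcium entry and NFAT signalling, which act downstream of calcium channels, 10 had a positive fold change, 5 lay above both controls and 3 below, median 0.03.

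The remaining lists gave no call. Median log2 fold changes, genes of the gate left out, were -0.05 for 11 tested megakaryocyte genes, -0.08 for 11 erythroid, -0.80 for 2 eosinophil, -0.37 for 8 lymphoid, -0.46 for 14 macrophage and -0.28 for 6 dendritic and MHC class II genes. The medians were 0.70 for 3 stromal and endothelial genes, 0.47 for the 2 genes of the sort, -0.02 for 9 genes of D cyclins and their kinases and inhibitors, -0.05 for 13 of haem and iron, -0.03 for 8 of sphingosine-1-phosphate, -0.44 for 3 thrombin receptor genes, F2r among them (-0.36 to -0.71 with each library left out), and -0.25 for 19 cytokine receptor genes. The macrophage list, whose cells also make Apoe, summed to 75.5 and 95.01 CPM in Yoda1 libraries and 129.8 and 92.9 CPM in controls, and its part in the Apoe level was not tested.

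**Figure D5:**
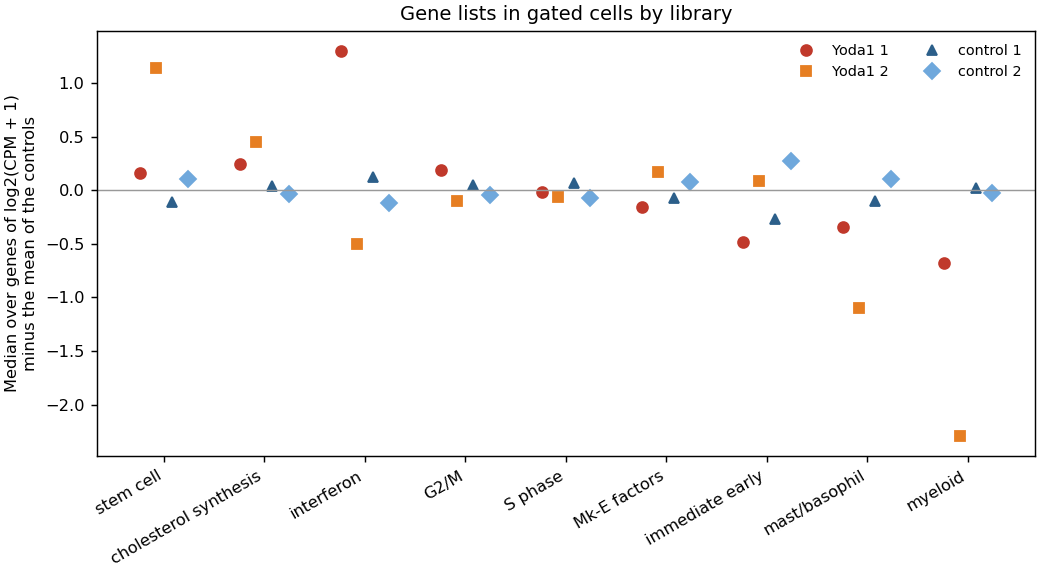
For 9 gene lists, genes of the gate left out, the median over genes of log2(CPM + 1) in gated cells minus the mean of the 2 controls, by library, Yoda1 left of control. Stem cell, mast and myeloid lists deviate most in Yoda1 2, interferon genes in Yoda1 1, and cholesterol synthesis genes lie above both controls in both Yoda1 libraries.

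Summed cycle genes overlapped between the groups in the gate as defined. The 18 S phase genes summed to 2444 and 2337 CPM in Yoda1 libraries, against 2572 and 2343 CPM in controls (exact two-sided permutation test, p = 0.667). The 18 G2/M genes summed to 4024 and 3375 CPM in Yoda1 libraries, against 3774 and 3384 CPM in controls (exact two-sided permutation test, p = 1.0). Mki67, the proliferation antigen, was at 287 and 271 CPM, against 248 and 231 CPM, a log2 fold change of 0.17 ± 0.16. In the cells with most Apoe the G2/M sum was 4164 and 3206 CPM in Yoda1 libraries, against 3052 and 2771 CPM in controls (exact two-sided permutation test, p = 0.333, the smallest possible here), a setting added after the data were seen. With at least 2 UMIs each of Gata2 and Apoe it was 4396 and 3894 CPM in Yoda1 libraries, against 3694 and 3306 CPM in controls (exact two-sided permutation test, p = 0.333). The groups did not overlap in these 2 settings, but they did in others. With the gate on thinned cells the sum was 3841.5 and 3130 CPM, against 3617 and 3313 CPM in controls. Without the 5% of cells with most UMIs it was 3902 and 3153 CPM, against 3736 and 3249 CPM.

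Whether the Yoda1 difference in the sums of gated cells differed from that in the rest was tested as an interaction between treatment and class, with library as a block. The rest is a mixture whose make-up varied. Cells with Gata2, Apoe and Klf1 or Car1 were 8.36% and 1.46% of kept cells in Yoda1 libraries and 14.6% and 8.02% in controls. A change within gated cells and a change in the make-up of either class cannot be told apart here. edgeR called 5 of 17444 genes (0.0287%): Prtn3, Emb and S100a8 lower, Gata2 and Mcpt4 higher. Gata2 is a gene of the gate, so its call is no test, and Apoe stood likewise at an interaction of 0.66. Prtn3, the granule protease proteinase 3 (chromosome 10, 79874476 to 79883174), was at 1854 and 604 CPM in gated cells of Yoda1 libraries, against 2433 and 2358 CPM in controls. In the rest Prtn3 was at 2417 and 861 CPM in Yoda1 libraries, against 2405 CPM in both controls, and the interaction was -0.47 ± 0.05 (log2, SE, edgeR adjusted p = 0.00608). Emb, the membrane glycoprotein embigin (chromosome 13, 117208536 to 117274415), was at 250 and 209 CPM in gated cells of Yoda1 libraries and 276 and 304 CPM in controls. Its level in the rest was 345 and 314 CPM in Yoda1 libraries and 268 and 326 CPM in controls, an interaction of -0.53 ± 0.07 (edgeR adjusted p = 0.0246).

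S100a8 had an interaction of -0.92 ± 0.13 (edgeR adjusted p = 0.0262), with 45.6 and 54.8 CPM in the rest of Yoda1 libraries and 159 and 83.9 CPM in controls. Mcpt4, a mast cell chymase, rested on 65 UMIs in 2 gated cells of Yoda1 2 and was at 0 in gated cells of the other 3 libraries. With a gate on thinned cells, and with a gate of at least 2 UMIs each of Gata2 and Apoe, none of these 5 genes was called, and 18 and 20 other genes were. Without control 1 the edgeR adjusted p of Emb was 0.0815, and Mcpt4 was not called without Yoda1 2 or without control 1. The rule also named genes whose edgeR adjusted p missed the threshold. The interaction was 0.64 for Pdzk1ip1 (adjusted p = 0.124), 0.66 for Car2 (0.195) and 0.97 for Arhgef12 (0.202), and -0.71 for Milr1 and -0.46 for Macroh2a1 (edgeR adjusted p = 0.0793 for each). Both Prtn3 and Emb were lower in the gated cells with most Apoe in each library. Emb was at 95.9, 84.2, 124 and 133 CPM in the cells with most Apoe and 374, 264, 373 and 392.2 CPM in those with 0.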

How the data were processed

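Single-cell RNA-seq of sorted mouse LSK cells was measured in 4 libraries, 2 from Yoda1-treated and 2 from control mice, grouped by the treatment label. The deposited values are raw UMI counts per gene and cell barcode, whole numbers with no normalization, written by Cell Ranger 7.1.0 per the file headers. The submitters' processing notes also list GRCm38, mm10 and Seurat 4.3.0. The labels describe 10x Genomics reagents and also a Singleron chip, which leaves the capture platform uncertain. The annotation release and the treatment of intronic reads are not given in the sources used here. Deposited gene symbols and barcodes identify the rows and columns of the matrices.

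Barcodes passed with 500 or more genes, 1000 or more UMIs and no more than 10% mitochondrial UMIs (34320 of 36805). No doublet caller was run, and leaving out the 5% of cells with most UMIs was an alternative. The gate was applied to raw counts. For shares at equal depth each cell was thinned to 3000 UMIs without replacement, once with a fixed seed. UMIs of gated cells and of the rest were summed per library and after filterByExpr and TMM scaling went into edgeR 4.0.16 in R 4.3.3 (quasi-likelihood, Benjamini-Hochberg over all genes tested, threshold 0.05). A SE is the absolute unshrunk log2 fold change over the square root of F, while the log2 fold change printed is edgeR's shrunk one. DESeq2 1.42.0 and limma 3.58.1 (voom) were alternatives, as were leaving out each library, a replicate block, RLE factors, testing without a low-count filter, tighter cell limits (1000 genes, 5% mitochondrial), and gates on thinned cells or on 2 UMIs. Tests were tried on simulated data first.

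Named genes follow a fixed rule: genes past the threshold with a mean of at least 10 CPM, or else the 5 per direction with the smallest unadjusted p and non-overlapping groups (predicted, ribosomal and mitochondrial symbols excluded), plus up to 4 members of a list. The leading genes of the gate needed a mean of at least 20 CPM. The members, the 27 gene lists and the tests were chosen with earlier results of these data known, and the split by Apoe after its values were seen. Genes named in that split are those with the largest smallest log2 ratio of CPM + 10 over the 4 libraries, and members of the lists. Positions are those of whole genes in GENCODE M21 (GRCm38), matched by identifier for 52081 of 55357 genes (94.1%), and promoters are from RefSeq. The labels give both groups the replicate numbers 1 and 2, which are not said to pair libraries. Some genes that the rule names are not reported here.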

Additional observations from a re-analysis of the deposited data

Results flagged for a closer look

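A test of the difference itself, the interaction of treatment and class, marked 4 genes outside the gate's own rule. Their Yoda1 difference in the sums of gated cells was unlike that in the rest. The make-up of the rest varied between libraries, and its part in these values was not tested. The interaction was -0.47 for Prtn3, -0.53 for Emb and -0.92 for S100a8 (log2, Yoda1 over control in gated cells relative to the same in the rest). For Mcpt4 the fitted value was 12.5, which depends on libraries at 0 and measures no size: 65 UMIs in 2 cells of Yoda1 2 carry it. Leaving out the 5% of cells with most UMIs, the adjusted p of edgeR was 0.0698 for Prtn3 and 0.895 for S100a8.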

How the results depend on the processing

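The replicate block, which takes the replicate number as a term, gave 0 genes called in gated cells, with 836 at an unadjusted p under 0.05. Over 13689 genes the replicate 1 minus replicate 2 differences of the groups correlated at 0.234, which with 2 pairs does not show that the numbers pair libraries. RLE factors, the stricter cell filter, the thinned gate, the 2-UMI gate, leaving out the cells with most UMIs, limma-voom and the cells with most Apoe also gave 0. No filter on low counts gave 218 (126 higher, 92 lower) and DESeq2 2, and leaving out 1 library gave 0 to 815. For the interaction, with 5 called, limma-voom gave 3, RLE factors 12, no low count filter 139, the thinned gate 18, the 2-UMI gate 20, leaving out the cells with most UMIs 3, and leaving out 1 library 35 to 599. The cause of these moves was not tested.

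The share of kept cells differed by 2.86 percentage points, 0.183 on the thinned gate, -0.213 for the cells with most Apoe, and 1.15 to 4.56 with a library left out. The S phase difference of -67.0 CPM reversed to 11.2 in the 2-UMI gate and to 169.7 in the cells with most Apoe, and lay between -181 and 47.3 with a library left out, positive without control 1. The G2/M difference of 120.6 CPM lay between -204 and 445 with a library left out, negative without Yoda1 1 and, at -74.4, without control 2, and was 644.7 in the 2-UMI gate and 773 in the cells with most Apoe. Across the alternatives the 10 named genes kept their direction, 117 times on the same side of the threshold and 23 times passing it, but the size of some moved. The log2 fold change of S100a8 (-2.19) was -0.91 in the 2-UMI gate and -0.55 in the cells with most Apoe, that of Gatm (-0.76) was -0.38 in the thinned gate and -0.26 with most Apoe, and that of Pde4d (-0.62) was -0.37 and -0.36 in the 2-UMI gate and with most Apoe. Pglyrp1 (-0.78) was at -0.48 in the thinned and the 2-UMI gate, Plxdc2 (1.34) at 0.86 with most Apoe, and Esam (1.23) at 0.76 without Yoda1 2. The interaction of S100a8 reversed to 0.47 in the 2-UMI gate, and that of Mcpt4 to -1.48.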

Other observations

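Values that stand in no comparison above concern sphingosine-1-phosphate and serotonin genes. Spns2, the second exporter of sphingosine-1-phosphate, was among the 20 genes that led the gated cells over the rest, at 71.2, 108, 91.8 and 79.6 CPM in gated cells and 38.1, 71.5, 46.8 and 44.1 CPM in the rest. Slc18a2, a vesicular transporter that loads monoamines such as serotonin, was at 45.8, 46.8, 38.2 and 47.5 CPM in gated cells and 15.6, 19.6, 20.8 and 26.3 CPM in the rest. It was at 91.1, 75.2, 89.7 and 113 CPM in the gated cells with most Apoe and 19.1, 30.4, 13.9 and 21.01 CPM in those with 0. In the cells with Pf4 outside the gate it was at 28.7, 40.7, 30.1 and 41.2 CPM, below its level in gated cells of the same library.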
